A study of Canis lupus familiaris with 36 samples.

Results

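Canine T-cell lymphomas labelled LBT (4 dogs) were compared with those labelled PTCL, peripheral T-cell lymphoma (4 dogs). The 8 tumours were chosen by the disease-state label alone, out of 36 arrays of primary canine lymphoma tissue from 35 dogs, each array carrying the total RNA of a mechanically dissociated and filtered tumour. The labels do not spell out LBT. In the canine classification it usually stands for T-cell lymphoblastic lymphoma, and markers of immature lymphocytes were measured to check that reading. The LBT dogs were 3 Golden Retrievers and 1 Labrador, 3 females and 1 male, diagnosed at 5, 3, 6 and 10 years, and all 4 tumours were of high grade. The PTCL dogs were 2 Boxers, 1 Golden Retriever and 1 Bichon Frise, 2 females and 2 males, diagnosed at 8, 9, 6 and 14 years. PTCL dogs 1 to 3 had tumours of high grade and PTCL dog 4, the Bichon Frise aged 14 years, had a tumour of intermediate grade. All 8 carried the T phenotype label, and no treatment is named for either group. Dogs are numbered in the order of their records, and the numbers carry no order or pairing. The 9 dogs with T-zone lymphoma (TZL) are a further T-cell group, both for levels and in the last comparisons. They were 8 Golden Retrievers and 1 Mastiff, 3 females and 6 males, aged 7 to 11 years. All 9 tumours were of low grade, so subtype cannot be told apart from grade there. B-cell lymphomas labelled DLBCL, MZL and BL also entered the gene filter and the spread used in the tests. DLBCL and BL tumours were of high grade and MZL tumours of low grade. These dogs were of both sexes and aged 2 to 14 years. Their breeds were Golden Retriever, Labrador, Rottweiler, Boxer, German Shepherd and Mastiff.

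T-cell lymphomas are classified by the stage of T-cell development that the tumour cells resemble. Lymphoblastic tumours resemble thymic precursors, which rearrange their receptor genes with the RAG recombinase and with the terminal transferase DNTT, while peripheral tumours resemble mature T cells that have left the thymus. A tumour biopsy also holds B cells, macrophages and stroma of the lymph node, and antigen-presenting cells among them carry MHC class II molecules, which resting mature T cells of the dog can also express.

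Values were hybridisation intensities on a whole-transcriptome canine array, given here as log2 intensity, with 1 probe set standing for each gene. A gene was tested if it reached log2 4 in at least 4 of the 34 dogs of the 6 subtypes, which 7500 of 15115 genes did, and values under 4 are called below the minimum. On the linear scale, where the minimum is 16, the 8 arrays had median intensities of 5.60 to 5.99 and upper quartiles of 52.1 to 60.1. In each of them 34.1% to 35.5% of all probe sets reached the minimum. Summed intensities of cell markers, given below, are also on the linear scale. Levels of different genes are not compared, since probe sets differ in their response. The number of dogs, 4 against 4, limits the precision of every difference. The actin 3' control probe set read 11.00 to 11.52 in LBT and 11.42 to 14.45 in PTCL, the highest being PTCL dog 3, the 1 dog of the 8 among 6 arrays that stood at 13 or more. The GAPDH 3' control read 13.32 to 13.88 in LBT and 12.87 to 13.26 in PTCL, without overlap. Mean differences were -1.06 in the actin 3' control (exact two-sided permutation p = 0.0571, adjusted 0.114) and 0.42 in the GAPDH 3' control (exact p = 0.0286, adjusted 0.114). The latter p is the smallest that 4 against 4 can give, and 1 control alone cannot pass the adjustment over 4 measures with it. The other measures were the 3' minus the 5' level of each control. For actin this was -1.43 to 0.63 in LBT and -0.59 to 2.53 in PTCL, highest in PTCL dog 3. Mean differences were -1.30 for actin (exact permutation p = 0.229, adjusted 0.305) and 0.04 for GAPDH (exact permutation p = 0.943, adjusted 0.943). With 4 dogs a group, these tests do not show that RNA quality was alike in the groups.

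The 2 lymphomas differed in few single genes. Of 7500 genes, 51 (0.68%) passed limma's test at an adjusted p under 0.05, 35 higher in LBT (0.467%) and 16 lower (0.213%). At an unadjusted p under 0.05 there were 934 genes (12.5%), the share to set beside the unadjusted counts of the gene lists below. The median difference over all genes tested was 0.05 on the log2 scale, LBT minus PTCL, and 4136 of 7500 genes were above 0. Without regard to the test, 338 genes (4.51%) had LBT dogs and PTCL dogs that did not overlap, 196 with all LBT dogs above (2.61%) and 142 with all below (1.89%). Among the 51 called genes the groups did not overlap in 23 of the 35 higher and 9 of the 16 lower, and all 51 differed by at least 2-fold on the log2 values. With values under the minimum set to it, 44 of the 51 did, and the other 7 rest in part on values under the minimum. Those 7 were DNAAF5, CEP89, PIK3CB, RBM20, GPR146, ITPK1 and KIAA0753. Set in this way, RBM20 was 1.49-fold, GPR146 1.37-fold, ITPK1 at least 1.49-fold and KIAA0753 at least 1.97-fold higher in LBT.

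The count depended on single dogs and on the fit. It was 11 without PTCL dog 4, 180 without PTCL dog 2, 85 without PTCL dog 3, 96 without LBT dog 4 and 30 without LBT dog 2. It was 24 with age as a covariate and 13 when limma was fitted to the 17 T-cell lymphomas alone. With the spread estimated from the 8 dogs alone limma called 0 genes, with 575 at an unadjusted p under 0.05 and a smallest adjusted p of 0.192. Unless the 8 dogs alone are named, each SE and p of limma below uses spread pooled over all subtypes fitted. That pooled spread can be smaller than the spread among the PTCL dogs. All 51 genes kept their direction in every alternative fit. Those called in all 8 fits that left out 1 dog numbered 8, namely DOK4, SLC16A10, DSTN, VEGFD, SMOC2, SGPL1, SPAG16 and LPGAT1.

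PTCL dogs were less alike than LBT dogs in their whole profiles. Across the 7500 genes, Pearson's r between 2 LBT dogs was 0.893 to 0.928 (median 0.918, 6 pairs) and between 2 PTCL dogs 0.846 to 0.916 (median 0.88, 6 pairs). Between an LBT dog and a PTCL dog it was 0.813 to 0.923 (median 0.885, 16 pairs). By these medians PTCL dogs were no more like each other than like LBT dogs. Of the 7500 genes, 4214 (56.2%) had the larger SD in PTCL, with a median SD of 0.58 against 0.53 in LBT. PTCL dogs 2 and 3 had median correlations of 0.911 and 0.893 with the LBT dogs and of 0.828 and 0.839 with the TZL dogs. PTCL dogs 1 and 4 had medians of 0.885 and 0.84 with the LBT dogs and of 0.898 and 0.893 with the TZL dogs. The pairs share dogs, and genes are not independent of each other, so these correlations are descriptions.

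**Figure D1:**
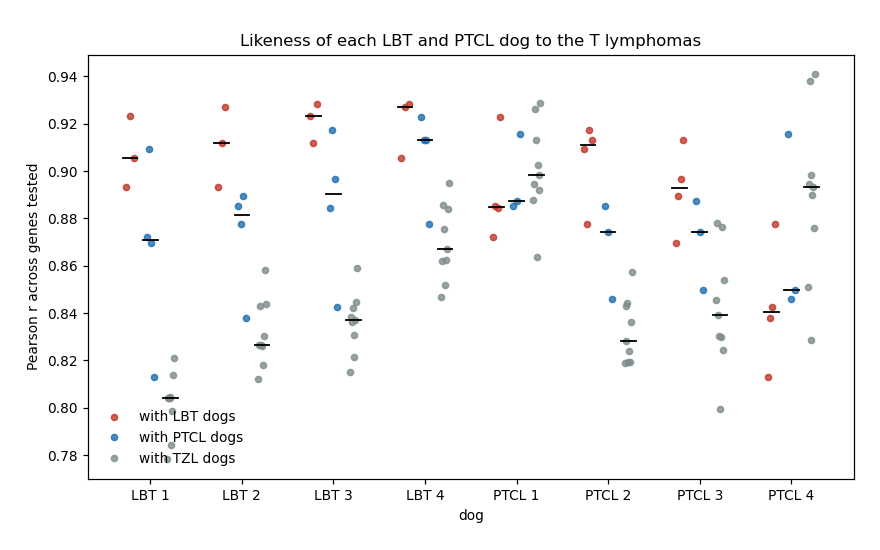
Pearson correlation across the 7500 genes tested (y axis) of each LBT and PTCL dog (x axis) with the other LBT dogs (red), the other PTCL dogs (blue) and the 9 TZL dogs (grey); points are pairs of dogs and bars are medians. PTCL dogs 2 and 3 have higher medians with LBT than with TZL (0.911 against 0.828 and 0.893 against 0.839), and PTCL dogs 1 and 4 have higher medians with TZL (0.898 against 0.885 and 0.893 against 0.84).

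The genes higher in LBT are given by what each is known to do, since no list of such functions was tested among them. In bulk tissue, fewer cells of a type and less RNA per cell cannot be told apart, here and in all results that follow. DOK4, a docking protein that couples receptor tyrosine kinases to their downstream pathways, read 6.37, 6.76, 6.18 and 6.71 in the 4 LBT dogs and 4.06, 4.20, 3.75 and 2.50 in the 4 PTCL dogs. The lowest LBT dog stood above the highest PTCL dog, and all 9 TZL dogs lay below the minimum. The difference was 2.88 (SE 0.28, limma's adjusted p = 1.54e-07), and with values under the minimum set to it LBT was 5.43-fold higher. It had the smallest p of all genes tested in this comparison.

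SLC16A10, a transporter of aromatic amino acids and thyroid hormone, read 8.53, 7.00, 7.64 and 7.32 in LBT and 1.94, 3.87, 6.73 and 2.32 in PTCL. PTCL dog 3 came near the LBT dogs, and the other PTCL dogs lay below the minimum. The difference was 3.91 (SE 0.53, limma's adjusted p = 9.52e-05), a 7.68-fold higher level in LBT. Its SD was 0.66 in LBT, 2.176 in PTCL and 0.196 in TZL, so the pooled SE understates the spread among PTCL dogs. With the 8 dogs alone limma's adjusted p for SLC16A10 was 0.418. VEGFD, a growth factor for lymphatic vessels, read 6.33, 6.46, 6.84 and 6.16 in LBT and 1.93, 4.33, 5.81 and 1.56 in PTCL. It followed the same order of PTCL dogs, with dog 3 highest, dog 2 next and dogs 1 and 4 below the minimum. Its difference was 3.04 (SE 0.47, limma's adjusted p = 0.000871), a 3.76-fold higher level. VEGFD had an SD of 2.019 in PTCL, and limma's adjusted p with the 8 dogs alone was 0.461.

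SMOC2, a secreted calcium-binding protein of the matrix, had a difference second to that of 1 other called gene on the log2 values, and ranked 3 with values under the minimum set to it. It was named after its values were seen, because its groups overlapped. Its levels were 10.40, 11.23, 11.81 and 10.61 in LBT and 8.56, 10.57, 5.70 and 2.57 in PTCL. PTCL dog 2 lay inside the LBT range, PTCL dog 4 was below the minimum, and dogs 1 and 3 stood between. LBT was 14-fold higher, with a difference of 4.16 (SE 0.83, limma's adjusted p = 0.0122). The SD of SMOC2 was 3.483 in PTCL, and limma's adjusted p with the 8 dogs alone was 0.587.

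Among regulators of the cytoskeleton and of membrane shape, FNBP1L, which links membrane curvature to actin assembly, read 9.96, 8.92, 7.46 and 5.81 in LBT and 3.23, 4.08, 4.23 and 3.37 in PTCL. LBT dogs spread over more than 4 units and still lay above every PTCL dog. Its difference of 4.31 (SE 0.90, limma's adjusted p = 0.0148) was the largest among the called genes, at 15.6-fold higher. DSTN, destrin, which severs and depolymerises actin filaments, read 8.64, 9.69, 10.02 and 8.34 in LBT and 4.95, 4.58, 5.70 and 6.04 in PTCL. No PTCL dog reached the LBT dogs, and the difference was 3.86 (SE 0.66, limma's adjusted p = 0.00319), or 14.5-fold. Other called genes of this kind had overlapping groups. TPM2, a tropomyosin, was 2.26 to 8.58 in LBT, where dog 3 was below the minimum, and below the minimum in all PTCL dogs (difference 2.71, limma's adjusted p = 0.0474). SH3GL3, an endophilin of endocytosis, was 6.70 to 10.20 in LBT and 2.00 to 8.48 in PTCL, where dog 2 alone lay in the LBT range (difference 3.76, limma's adjusted p = 0.0128).

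Several called genes encode enzymes or transporters. SGPL1, the lyase that degrades sphingosine 1-phosphate, read 5.66, 5.83, 5.05 and 4.94 in LBT and 4.30, 3.70, 2.19 and 3.11 in PTCL. All LBT dogs were above all PTCL dogs, by 2.04 (SE 0.33, limma's adjusted p = 0.00126) on the log2 scale, a 2.45-fold higher level. BDH1, an enzyme of ketone body metabolism, read 8.08, 8.80, 8.11 and 7.55 in LBT and 6.24, 5.96, 5.61 and 6.72 in PTCL. The groups did not overlap and LBT was 4.01-fold higher, with a difference of 2.00 (SE 0.47, limma's adjusted p = 0.0329). SLC12A7, a potassium-chloride cotransporter, was 5.25 to 6.99 in LBT and 3.56 to 5.09 in PTCL, again without overlap, and differed by 1.89 (SE 0.45, limma's adjusted p = 0.0329). DHCR7, which makes the last step of cholesterol synthesis, and ITPK1, an inositol phosphate kinase, were also called higher, by 2.57 and 1.52. CLTRN, an amino acid transport partner, was higher by 3.46 and PRXL2B, a prostamide and prostaglandin F synthase, by 3.65, both with PTCL dogs inside the LBT range.

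CARHSP1, an RNA-binding protein that stabilises tumour necrosis factor transcripts, read 8.73, 9.72, 10.25 and 7.98 in LBT and 6.71, 6.85, 5.36 and 6.72 in PTCL. MOB2, a regulator of NDR kinases, read 7.10, 8.61, 7.66 and 8.43 in LBT and 6.74, 6.01, 5.52 and 5.26 in PTCL. In both genes the 4 LBT dogs stood above the 4 PTCL dogs, by 2.76 (SE 0.57, limma's adjusted p = 0.0148) and by 2.07 (SE 0.38, limma's adjusted p = 0.00636). Both were high in TZL too, at 7.95 to 10.10 for CARHSP1 and 6.71 to 8.26 for MOB2, as was BDH1 (6.79 to 8.44). PTCL was lower than the mean of LBT and TZL by -2.85 (adjusted p = 0.00365) in CARHSP1 and -1.77 (adjusted p = 0.00586) in MOB2 with limma.

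Of the other genes named by size, CCDC30, a coiled-coil protein, was 6.90 to 8.73 in LBT and 2.46 to 5.57 in PTCL (difference 3.93, SE 0.74, limma's adjusted p = 0.00693). TMEM64, a membrane protein, was 5.32 to 7.30 in LBT and 2.34 to 4.93 in PTCL (difference 3.16, SE 0.69, limma's adjusted p = 0.0208). SPAG16, an axoneme protein, was 4.51 to 6.32 in LBT and 2.87 to 4.05 in PTCL (difference 2.09, SE 0.37, limma's adjusted p = 0.00354). None of the 3 overlapped between the groups. DNAAF5, an assembly factor of axonemal dynein, and CEP89, a centrosome protein, were below the minimum in every PTCL dog, so LBT was at least 1.96-fold and at least 1.68-fold higher, with limma's adjusted p of 0.0172 and 0.0329.

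RNA and chromatin factors among the called genes were named after their values were seen. KHDRBS3 and RBFOX2, which regulate splicing, were higher in LBT by 3.83 and 3.53, with PTCL dog 3 inside the LBT range at 10.83 and 7.06. RBM20, another splicing regulator, was higher by 2.04, with PTCL dog 1 inside the LBT range at 4.74. MED21, a Mediator subunit, POLR3E, a subunit of RNA polymerase III, and RIOX2, a ribosomal oxygenase, differed by 1.12, 1.15 and 1.53 with no overlap. MIS12, a kinetochore protein, was higher by 1.75, KCTD5, a ubiquitin ligase adaptor, by 1.57, KIAA0753, a centriolar protein, by 1.47 and C5H1orf174 by 1.63, also without overlap. The remaining 3 called higher were GPR146, an orphan receptor (1.64), BTBD11 (2.65) and PTGFRN, an immunoglobulin-family membrane protein (2.59), whose groups overlapped.

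**Figure D2:**
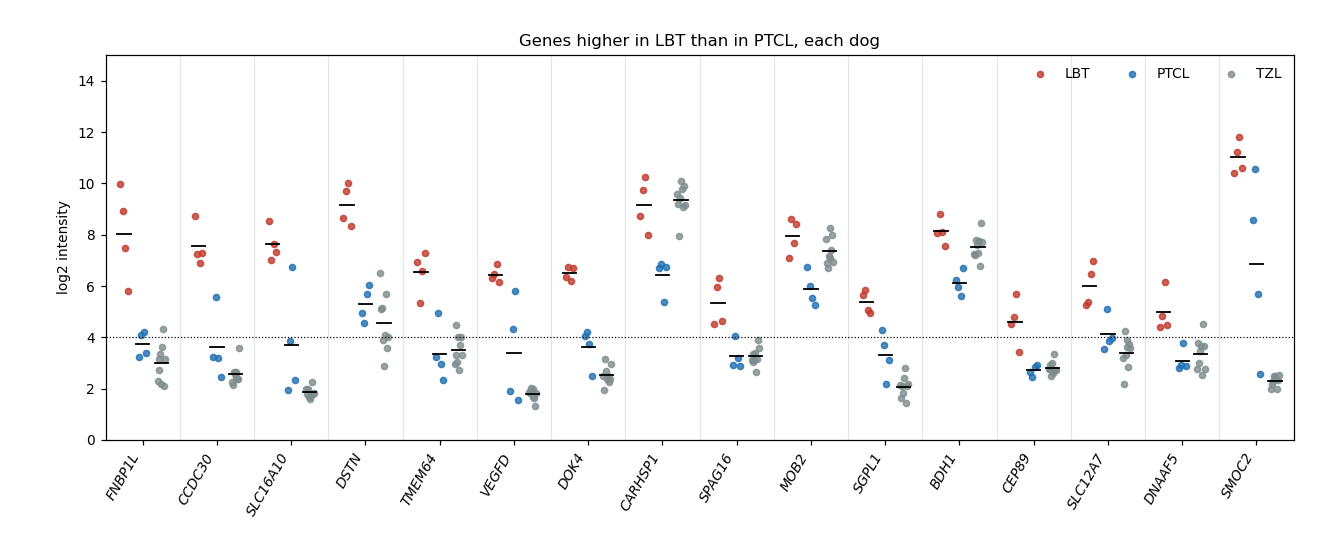
Log2 intensity (y axis) of the 15 called genes with the largest positive difference and no overlap, and of SMOC2 (x axis), in the 4 LBT (red), 4 PTCL (blue) and 9 TZL dogs (grey); points are dogs, bars are means, and the dotted line is the minimum of 4. DOK4 is 6.18 to 6.76 in LBT and 2.50 to 4.20 in PTCL, and SMOC2 runs from 2.57 to 10.57 over the 4 PTCL dogs.

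How far the PTCL dogs stood from LBT in these 35 genes differed among them. PTCL dogs 2 and 3 were each at or above the lowest LBT dog in 7 of the 35 genes, PTCL dog 1 in 2 and PTCL dog 4 in 1. PTCL dog 4 was below the minimum in 25 of the 35, dog 1 in 22, dog 3 in 17 and dog 2 in 11. In TZL, 19 of the 35 genes were below the minimum in every one of the 9 dogs, against 5 of 35 in every PTCL dog and 0 of 35 in every LBT dog. These genes were chosen for their difference between LBT and PTCL, so the counts are descriptions.

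Of the 16 genes called lower in LBT, 9 did not overlap between the groups. ELL2, an elongation factor of RNA polymerase II that plasma cells use for immunoglobulin secretion, read 3.58, 2.57, 4.62 and 5.14 in LBT and 8.12, 5.78, 5.90 and 9.48 in PTCL. The highest LBT dog lay below the lowest PTCL dog, LBT was 7.35-fold lower, and the difference was -3.34 (SE 0.77, limma's adjusted p = 0.0284). NFE2L2, the transcription factor of the oxidative stress response, read 4.29, 4.24, 3.68 and 5.24 in LBT and 8.15, 7.09, 6.49 and 7.59 in PTCL. LBT was 7.41-fold lower without overlap, with a difference of -2.97 (SE 0.69, limma's adjusted p = 0.0302). LGALS3, galectin-3, a lectin abundant in macrophages, read 5.80, 8.38, 6.70 and 5.76 in LBT and 8.45, 10.29, 8.70 and 11.34 in PTCL. The PTCL dogs started just above the highest LBT dog, and the difference was -3.04 (SE 0.69, limma's adjusted p = 0.0258), 8.2-fold lower in LBT.

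ITGAX, the CD11c integrin chain of dendritic cells and macrophages, was below the minimum in all 4 LBT dogs and read 5.46, 5.42, 6.48 and 7.17 in PTCL. LBT was therefore at least 4.38-fold lower, with a fitted difference of -2.83 (SE 0.66, limma's adjusted p = 0.0321). LPGAT1, a lysophospholipid acyltransferase, read 2.46, 2.69, 3.33 and 5.23 in LBT and 6.27, 5.89, 6.13 and 6.21 in PTCL. The 4 PTCL dogs lay close together and above all LBT dogs, with a difference of -2.70 (SE 0.47, limma's adjusted p = 0.00354), or 3.53-fold. KLHL2, an adaptor of a cullin ubiquitin ligase, was 4.17 to 5.11 in LBT and 5.83 to 7.84 in PTCL and differed by -2.01 (SE 0.43, limma's adjusted p = 0.0172). PRNP, the prion protein, was 6.75 to 8.63 in LBT and 8.71 to 10.02 in PTCL and differed by -1.55 (SE 0.34, limma's adjusted p = 0.0212). PIK3CB, a catalytic subunit of phosphoinositide 3-kinase, was below the minimum in all LBT dogs and reached 3.47 to 4.89 in PTCL, which makes LBT at least 1.18-fold lower (limma's adjusted p = 0.0335).

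MITF, a transcription factor of pigment cells, mast cells and macrophages, read 4.42, 3.73, 4.17 and 4.36 in LBT and 4.62, 7.57, 7.09 and 6.54 in PTCL. PTCL dog 1 stood next to the LBT dogs, and the other PTCL dogs were 2 units or more above them. The difference was -2.29 (SE 0.49, limma's adjusted p = 0.0172). The TZL dogs were at 2.97 to 4.91, a range that held PTCL dog 1 and no other PTCL dog. The PTCL mean was the highest among the T lymphomas, at 2.34 (adjusted p = 0.00513) above the mean of LBT and TZL with limma.

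Of the other genes called lower, 4 had roles outside antigen presentation and overlapping groups. They were PTPN12, a tyrosine phosphatase (-2.55), SLC1A5, the glutamine transporter (-2.10), HMGN3, a nucleosome-binding protein (-1.77), and LOC608238, which RefSeq annotates as a constant-region gene segment (-1.49). LBT dog 4 was the highest LBT dog in PTPN12, SLC1A5 and HMGN3, at 7.53, 6.67 and 9.68.

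**Figure D3:**
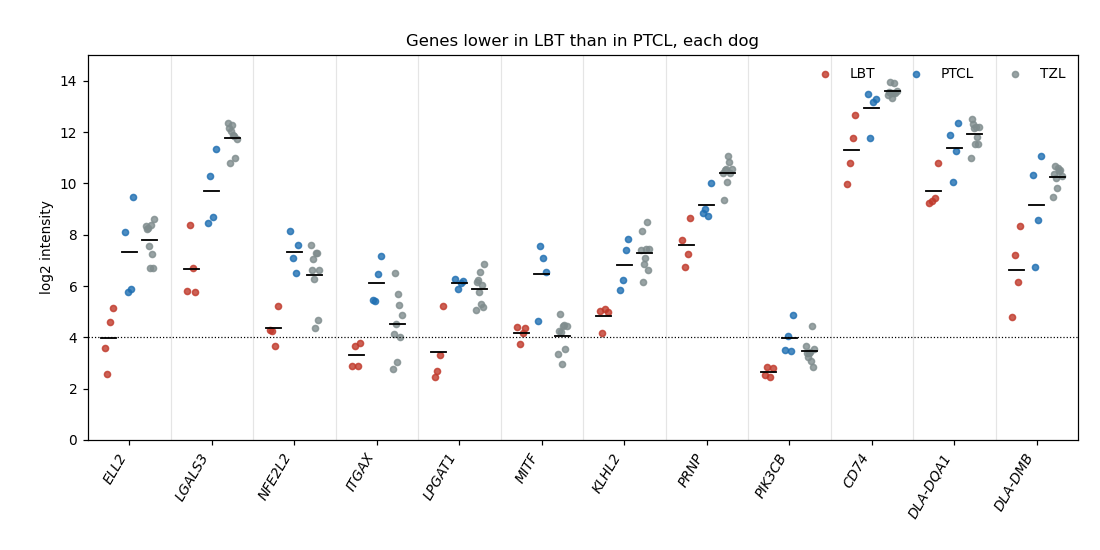
Log2 intensity (y axis) of the 9 called genes with a negative difference and no overlap, and of 3 called MHC class II genes (x axis), in the 4 LBT (red), 4 PTCL (blue) and 9 TZL dogs (grey); points are dogs, bars are means, and the dotted line is the minimum of 4. LPGAT1 is 5.89 to 6.27 in PTCL and 2.46 to 5.23 in LBT, and MITF is lower in TZL than in 3 of the 4 PTCL dogs.

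Genes of MHC class II presentation were among those lower in LBT. Of 19 genes of class II presentation tested, 3 passed lower (CD74, DLA-DQA1 and DLA-DMB) and 0 higher, against 0.213% of all genes called lower. The list's median difference was -1.69 against 0.05 over all genes, and 18 of 19 were below 0. With limma, 14 of the 19 had an unadjusted p under 0.05, against 12.5% of all genes. CD74, the invariant chain that escorts class II molecules, read 9.98, 10.81, 11.77 and 12.67 in LBT and 13.47, 11.75, 13.17 and 13.30 in PTCL. LBT dog 4 lay above the lowest PTCL dog, and LBT was 3.07-fold lower, with a difference of -1.62 (SE 0.38, limma's adjusted p = 0.0321).

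DLA-DQA1, a class II alpha chain, read 9.22, 9.32, 9.42 and 10.80 in LBT and 11.87, 10.07, 11.25 and 12.34 in PTCL. DLA-DMB, a chain of the peptide-exchange molecule, read 4.78, 7.19, 6.14 and 8.32 in LBT and 10.33, 6.73, 8.57 and 11.07 in PTCL. In both, PTCL dog 2 lay among the LBT dogs, and the differences were -1.69 (SE 0.38, limma's adjusted p = 0.0212) and -2.57 (SE 0.59, limma's adjusted p = 0.0284). DLA-DRA, the DR alpha chain, did not pass: it was 10.95 to 12.79 in LBT and 11.99 to 13.41 in PTCL, a difference of -1.01 (SE 0.26, limma's adjusted p = 0.0606). Highly similar class II genes can share probes, so the split among them is uncertain.

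The class II calls changed when single dogs were left out. Called members numbered 10 without LBT dog 4, 9 without PTCL dog 2, 1 without LBT dog 2, and 0 without LBT dog 1, without PTCL dog 1 or without PTCL dog 4. It was also 0 with age or breed as a covariate and in the 17 T-cell lymphomas alone, and 7 with sex as a covariate. Calls over all genes also changed in these fits. Genes called lower in LBT numbered 39 without LBT dog 4, 76 without PTCL dog 2 and 8 without LBT dog 2. They numbered 8 without LBT dog 1, 17 without PTCL dog 1 and 2 without PTCL dog 4, against 16 with all dogs. The count was 3 with age, 11 with breed and 28 with sex as a covariate, and 1 in the 17 T-cell lymphomas alone. The class II median stayed between -2.06 and -1.13 when single dogs were left out. Mean log2 level over the 19 genes was lowest in LBT dog 1 (6.94) and highest in PTCL dog 4 (10.62), and LBT dog 4 (8.87) and PTCL dog 2 (8.22) lay in the other group's range.

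Markers of B cells and macrophages also had lower means in LBT. All 8 measured B cell markers of 9 had lower means in LBT. Their summed intensity was 46.5 to 2055.2 in LBT and 167.7 to 4428.7 in PTCL, with 1 marker (PAX5) below the minimum in all 8 dogs. In the longer B cell list, 19 genes were tested, all 19 were below 0, the median was -2.29 and 0 passed limma's test (12 at an unadjusted p under 0.05). The median was -1.39 without PTCL dog 4, and 2 genes passed without LBT dog 4 and 3 without PTCL dog 2. MS4A1, the B cell surface protein CD20, read 3.42, 4.35, 6.70 and 10.66 in LBT and 9.97, 6.80, 9.29 and 10.80 in PTCL, and its difference was -2.94 (SE 1.17, limma's adjusted p = 0.274). LBT dog 4 stood near the highest PTCL dog and LBT dog 1 was below the minimum. CD79A, the signalling partner of surface immunoglobulin, was 2.13 to 6.96 in LBT and 3.48 to 8.71 in PTCL (difference -1.64, SE 0.97, limma's adjusted p = 0.518).

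BLNK, SYK and BTK, signal transducers of the B cell receptor that myeloid cells also use in part, had differences of -3.16, -2.96 and -2.74, with limma's adjusted p of 0.23, 0.147 and 0.229. JCHAIN, the joining chain of secreted immunoglobulin, was 8.72 to 10.83 in LBT and 11.49 to 12.76 in PTCL without overlap and did not pass (difference -2.39, SE 0.74, limma's adjusted p = 0.127). B cell mean levels ordered the PTCL dogs as the class II levels did, with dog 4 highest (8.56), then dog 1 (7.64), dog 3 (5.22) and dog 2 (4.04). Macrophage and dendritic means ordered them differently, with dog 4 highest (8.14), then dog 3 (6.59), dog 1 (6.36) and dog 2 (5.41). Stroma means ran from dog 1 (5.84) through dog 3 (5.56) and dog 4 (4.61) to dog 2 (3.70).

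All 10 macrophage markers had lower means in LBT, with a summed intensity of 105.3 to 489.1 against 277 to 1772.9 in PTCL, and 5 of the 10 were below the minimum in every LBT dog. In the macrophage and dendritic list 2 of 19 genes passed lower, LGALS3 and ITGAX, against 0.213% of all genes. The median was -1.75, and 8 of 19 had an unadjusted p under 0.05 with limma. The groups did not overlap in 8 of 19, all with LBT below, against 1.89% of all genes. The 2 calls became 0 without PTCL dog 4 (median -1.09), without LBT dog 1 or without LBT dog 3, 1 without LBT dog 2 or LBT dog 4, and 3 without PTCL dog 1 or PTCL dog 2. CD68, a lysosomal glycoprotein of macrophages, was below the minimum in all LBT dogs and read 4.86, 6.34, 7.17 and 6.21 in PTCL (difference -2.64, SE 0.69, limma's adjusted p = 0.0606). MARCO, a scavenger receptor of macrophages, was below the minimum in all LBT dogs and 2.80 to 6.40 in PTCL (difference -1.81, SE 0.55, limma's adjusted p = 0.121). The part of B cells and macrophages in the class II and other differences was not tested.

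Stroma, endothelium and neutrophil markers also had lower means in LBT, in 7 of 7, 6 of 7 and 3 of 3 measured. These counts include markers below the minimum in all 8 dogs. Summed stroma markers were 37.4 to 84.8 in LBT and 50.9 to 453 in PTCL, with DCN, PDGFRB and POSTN below the minimum in all 8 dogs. Endothelial markers were 41.5 to 115.2 against 163.1 to 901.5, where VWF, CDH5, TEK, CLDN5 and EMCN were below the minimum in all 8. The remaining markers were PECAM1 and KDR, so neither this sum nor the count of 6 of 7 describes endothelial markers as a set. Neutrophil markers were 25.3 to 327.4 against 63 to 1750.2, with CSF3R below the minimum in all 8. None of 17 stroma genes, 5 endothelium genes and 8 neutrophil and mast cell genes tested passed limma's test, with 5, 1 and 3 at an unadjusted p under 0.05 and medians of -1.45, -0.64 and -2.05. The stroma median was -0.93 without PTCL dog 1 and -0.92 without PTCL dog 3, the endothelium median -0.39 without PTCL dog 1 and -0.16 without PTCL dog 2, and the neutrophil and mast cell median -1.15 without PTCL dog 4. FN1, fibronectin of the matrix, was 1.92 to 3.97 in LBT and 4.69 to 7.53 in PTCL (difference -2.91, SE 1.24, limma's adjusted p = 0.306), ACTA2, smooth muscle actin, 1.94 to 2.73 and 2.83 to 7.31 (difference -2.04, SE 0.85, limma's adjusted p = 0.301), and TIMP1, an inhibitor of matrix proteases, 3.52 to 7.60 and 6.75 to 9.48 (difference -2.84, SE 1.06, limma's adjusted p = 0.228). PECAM1, an adhesion molecule of endothelium and leukocytes, differed by -2.63 (SE 1.12, limma's adjusted p = 0.307). MMP9, a gelatinase, was 2.19, 5.44, 2.56 and 2.62 in LBT and 2.43, 10.78, 5.62 and 6.55 in PTCL, highest in PTCL dog 2 (difference -3.14, SE 0.93, limma's adjusted p = 0.112), and MS4A2, a mast cell receptor chain, differed by -1.01 (SE 0.32, limma's adjusted p = 0.135). The part of these cells in the differences was not tested.

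T cell receptor genes ran the other way. Of 34 genes of the receptor and its proximal signalling tested, 26 were above 0, the median was 0.64 against 0.05 over all genes, and 0 passed limma's test (8 at an unadjusted p under 0.05). The median was 0.30 without PTCL dog 4, and 0 to 2 genes passed when single dogs were left out. T cell markers summed to 27398.8 to 35877.6 in LBT and 7907.1 to 27356.4 in PTCL, and 9 of 10 measured markers had the higher mean in LBT, none of the 10 being below the minimum in any whole group. TRAT1, an adaptor that stabilises the receptor complex, read 12.52, 11.87, 12.12 and 12.24 in LBT and 7.08, 11.30, 11.45 and 7.73 in PTCL. PTCL dogs 1 and 4 were far below the rest, and although no PTCL dog reached LBT the test was not passed (difference 2.80, SE 0.82, limma's adjusted p = 0.109).

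THEMIS, which sets signalling thresholds in thymocyte selection, read 8.83, 6.17, 8.02 and 7.45 in LBT and 7.81, 4.04, 5.08 and 2.60 in PTCL (difference 2.73, SE 0.72, limma's adjusted p = 0.0635). UBASH3A, a suppressor of receptor signalling, read 6.89, 7.20, 4.80 and 7.55 in LBT and 7.14, 2.39, 2.97 and 4.45 in PTCL (difference 2.37, SE 0.67, limma's adjusted p = 0.092). PTCL dog 1 lay in the LBT range for both genes. RASGRP1, the Ras activator downstream of the receptor, was 9.11 to 10.32 in LBT and 7.51 to 9.19 in PTCL (difference 1.34, SE 0.42, limma's adjusted p = 0.134). The chains CD3E and CD247 were 11.52 to 12.07 and 10.57 to 11.22 in LBT and 9.06 to 12.48 and 8.83 to 11.07 in PTCL, lowest in PTCL dog 4 for both, and did not pass (0.55 and 1.12, limma's adjusted p = 0.91 and 0.375). CD3E took the other sign without PTCL dog 4, at -0.18.

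Surface receptors of mature T cells varied among dogs within both groups. CD28, the costimulatory receptor, was 9.34 to 10.27 in LBT and 6.58 to 10.47 in PTCL (difference 1.17, SE 0.59, limma's adjusted p = 0.416). CD5, an inhibitory receptor, read 9.01, 10.24, 3.96 and 6.24 in LBT and 8.34, 10.12, 8.11 and 7.92 in PTCL, low in LBT dogs 3 and 4 (difference -1.26, SE 0.83, limma's adjusted p = 0.575). CD4, the coreceptor of helper cells, read 7.64, 6.91, 6.55 and 9.45 in LBT and 7.55, 7.29, 7.20 and 5.24 in PTCL, with PTCL dog 4 lowest (difference 0.81, SE 0.96, limma's adjusted p = 0.802). CD8A, the coreceptor of cytotoxic cells, was below the minimum in all 8 dogs, while TZL dogs ran from 2.85 to 10.97. CD52, a glycoprotein of lymphocytes, was 5.80 to 11.88 in LBT and 5.98 to 10.81 in PTCL (difference 1.15, SE 1.05, limma's adjusted p = 0.723).

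PTPRC (CD45), the phosphatase carried by all leukocytes, was 10.50 to 12.34 in LBT and 10.99 to 12.12 in PTCL, and the groups overlapped (difference 0.18, SE 0.89, limma's adjusted p = 0.961). Its sign turned without LBT dog 1 and in its other probe set. DPP4, the peptidase CD26 on T cells, was 8.97 to 14.23 in LBT and 8.40 to 11.41 in PTCL, above every TZL dog (3.47 to 5.37), and LBT and PTCL overlapped (difference 1.69, SE 0.68, limma's adjusted p = 0.278). IL7R, the interleukin-7 receptor of T cell survival, read 8.10, 10.25, 7.22 and 10.14 in LBT and 8.09, 11.32, 9.92 and 9.15 in PTCL (difference -0.69, SE 0.76, limma's adjusted p = 0.786). In the list of naive, memory and recirculation genes 0 of 24 passed (3 at an unadjusted p under 0.05) and the median was 0.19. ITGA4 and ITGAL, integrin chains of lymphocyte homing, differed by 1.69 (SE 0.72, limma's adjusted p = 0.313) and 0.90 (SE 0.40, limma's adjusted p = 0.337). CCR7, the homing receptor for lymph nodes, was 5.29 to 6.94 in LBT and 9.31 in PTCL dog 1 against 4.63 to 4.81 in the other PTCL dogs, a mean difference of 0.14 whose sign turned in 11 of the alternative fits.

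**Figure D4:**
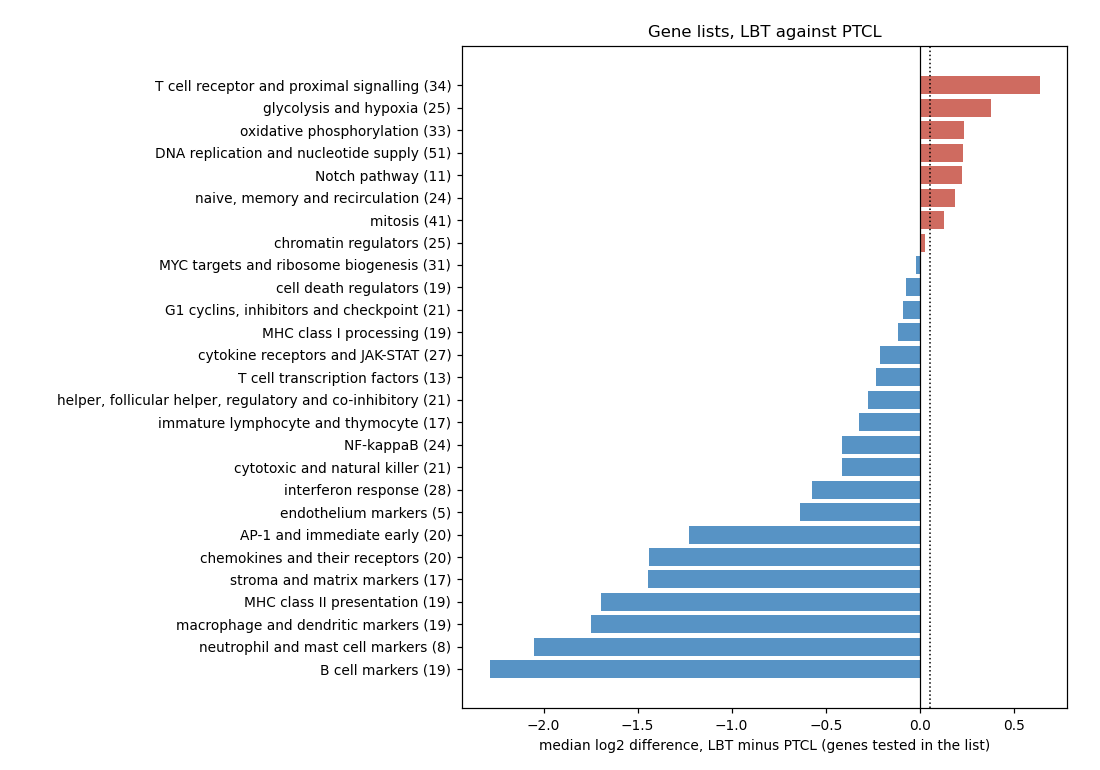
Median log2 difference, LBT minus PTCL (x axis), over the tested genes of each of 27 gene lists (y axis, number of genes in brackets); red bars are above 0, blue bars below, and the dotted line is the median of all 7500 genes (0.05). B cell (-2.29), neutrophil and mast cell (-2.05), macrophage (-1.75) and MHC class II (-1.69) lists lie lowest, and the T cell receptor list (0.64) lies highest.

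The defining markers of immature lymphocytes were low in both groups. RAG1 and RAG2, the recombinase, CD34 and KIT, receptors of progenitors, and TAL1 were below the minimum in all 8 dogs. DNTT read 5.42, 2.81, 4.42 and 2.76 in LBT and 3.08, 2.34, 2.36 and 2.41 in PTCL, reaching the minimum only in LBT dogs 1 and 3, and the difference was 1.31 (SE 0.92, limma's adjusted p = 0.602). Measured immature markers, 7 of 8, summed to 78.5 to 223.1 in LBT and 105.7 to 1097.5 in PTCL, 5 of 7 with lower means in LBT. Of these 7, 5 were below the minimum in all 8 dogs, so neither the sum nor that count describes immature markers as a set. The remaining markers were DNTT, with the higher mean in LBT, and LMO2, with the lower mean in LBT. On this array, then, RAG1, RAG2, CD34, KIT and TAL1 were not detected in either group, while DNTT reached the minimum in LBT dogs 1 and 3. Whether these probe sets can detect their transcripts was not tested, so the reading of the LBT label was not settled. The groups are called by their labels here.

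In the longer list of immature lymphocyte and thymocyte genes 0 of 17 passed (6 at an unadjusted p under 0.05), with a median of -0.32, and the median was 0.22 under the stricter filter. MYB, a transcription factor of progenitors and thymocytes, read 9.43, 7.88, 8.57 and 7.08 in LBT and 4.62, 9.09, 6.35 and 3.54 in PTCL. PTCL dog 2 lay in the LBT range and the difference was 2.34 (SE 0.62, limma's adjusted p = 0.0635), while all TZL dogs were below the minimum. TCF7, a factor of T cell commitment, read 7.81, 7.70, 8.17 and 7.90 in LBT and 7.08, 7.75, 4.94 and 2.72 in PTCL, low in PTCL dogs 3 and 4 (difference 2.27, SE 0.76, limma's adjusted p = 0.161). LMO2, SPI1 and MEF2C, which B cells or myeloid cells also express, were lower in mean in LBT, by -2.33, -2.44 and -2.55, with limma's adjusted p of 0.337, 0.0635 and 0.257.

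Notch genes gave no call either. NOTCH1 and NOTCH3, receptors of thymocyte commitment, were below the minimum in all 8 dogs, and 0 of 11 tested pathway genes passed, with 0 at an unadjusted p under 0.05 and a median of 0.23. NCSTN, a subunit of the secretase that cleaves Notch, differed by 0.62 (SE 0.49, limma's adjusted p = 0.656), and MFNG, a glycosyltransferase acting on Notch, by 0.43 (SE 0.48, limma's adjusted p = 0.789). Of 13 T cell transcription factors tested 0 passed (4 at an unadjusted p under 0.05, median -0.23). IKZF2, Helios, read 10.29, 9.86, 11.24 and 10.88 in LBT and 8.46, 11.48, 7.94 and 5.97 in PTCL, above every TZL dog (2.47 to 7.35) except in PTCL dog 4. Its groups overlapped (difference 2.11, SE 0.86, limma's adjusted p = 0.286), and another probe set gave -0.17. ZBTB16, the factor of innate-like T cells, reached 8.75 in LBT dog 2 and differed by 1.68 (SE 0.71, limma's adjusted p = 0.306). PRDM1, a factor of terminal differentiation, was below the minimum in all LBT dogs and 2.87 to 6.78 in PTCL (difference -2.08, SE 0.81, limma's adjusted p = 0.256).

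Effector genes were not shared within the groups. In the cytotoxic and natural killer list 0 of 21 passed (2 at an unadjusted p under 0.05, median -0.42). GZMB, granzyme B, read 8.41, 10.25, 2.42 and 2.87 in LBT and 3.45, 4.08, 2.89 and 7.02 in PTCL, high in LBT dogs 1 and 2 and in PTCL dog 4 (difference 1.62, SE 1.56, limma's adjusted p = 0.739). PRF1, perforin, was above the minimum only in LBT dogs 2 and 4 and was not tested. KLRG1, an inhibitory receptor of effector cells, read 8.14, 4.35, 1.94 and 2.51 in LBT and was below the minimum in all PTCL dogs (difference 2.37, SE 0.77, limma's adjusted p = 0.153). FASLG, the death ligand, was below the minimum in all LBT dogs, reached it only in PTCL dog 1 (5.35), and was 5.63 to 8.54 in TZL. SLAMF7, an activating receptor, differed by -1.50 (SE 0.81, limma's adjusted p = 0.46). IL2RB, a chain of the interleukin-2 receptor, was 2.63 to 5.29 in LBT and 5.46 to 6.83 in PTCL without overlap and did not pass (difference -2.04, SE 0.61, limma's adjusted p = 0.117).

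Helper, regulatory and co-inhibitory genes numbered 21 tested, of which 0 passed (7 at an unadjusted p under 0.05, median -0.28). CTLA4, the inhibitory receptor of activated and regulatory T cells, read 7.70, 3.50, 6.83 and 4.74 in LBT and 9.48, 10.66, 6.54 and 7.92 in PTCL. LBT dogs 1 and 3 lay above PTCL dog 3, and the difference was -2.96 (SE 1.10, limma's adjusted p = 0.229). BCL6, the repressor of germinal centre and follicular helper cells, read 8.67, 7.44, 9.80 and 8.59 in LBT and 9.55, 12.43, 8.63 and 10.38 in PTCL, highest in PTCL dog 2 (difference -1.62, SE 0.94, limma's adjusted p = 0.508). CD96 and CD226, paired receptors for nectin ligands, differed by 2.88 (SE 0.83, limma's adjusted p = 0.105) and 1.49 (SE 0.63, limma's adjusted p = 0.306), with the higher mean in LBT.

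Of 27 cytokine receptor and JAK-STAT genes tested 0 passed (4 at an unadjusted p under 0.05, median -0.21). IL6ST, the shared receptor of interleukin-6 cytokines, read 6.09, 6.07, 6.97 and 6.52 in LBT and 4.32, 8.21, 4.26 and 3.32 in PTCL, where dog 2 was highest of all 8 (difference 1.39, SE 0.58, limma's adjusted p = 0.296). IL6R, its ligand-binding partner, was below the minimum in all LBT dogs and above it in PTCL dogs 3 and 4 (difference -1.18, SE 0.40, limma's adjusted p = 0.175). STAT4, the transducer of interleukin-12, read 6.29, 3.93, 5.10 and 5.26 in LBT and 8.18, 4.42, 5.42 and 9.09 in PTCL, high in PTCL dogs 1 and 4, which stood at the level of the TZL dogs (7.99 to 9.76, difference -1.63, SE 0.67, limma's adjusted p = 0.29).

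Chemokines and their receptors had a median of -1.44 over 20 genes tested, with 17 below 0 and 0 passed (3 at an unadjusted p under 0.05). The median was -0.87 without PTCL dog 4, and 1 gene passed without LBT dog 4 and 2 without PTCL dog 2. CCL17, a ligand of CCR4, read 2.42, 2.81, 3.36 and 8.16 in LBT and 7.02, 3.47, 8.51 and 9.50 in PTCL. LBT dog 4 was near PTCL dog 3 and above PTCL dogs 1 and 2 (difference -2.94, SE 0.97, limma's adjusted p = 0.157). CCL2 and CCL20, which attract monocytes and CCR6-bearing cells, were below the minimum in all LBT dogs and 3.52 to 8.40 and 2.06 to 7.13 in PTCL (limma's adjusted p = 0.299 and 0.181). CCL21, the node chemokine of stroma, was below the minimum in all LBT dogs, 9.21 in PTCL dog 1 and 5.33 in PTCL dog 4 (difference -1.99, SE 0.99, limma's adjusted p = 0.41). CXCR5, the receptor of B cells and follicular helper cells, was above the minimum in PTCL dogs 1 and 4 only (6.50 and 6.33, difference -1.97, limma's adjusted p = 0.419).

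**Figure D5:**
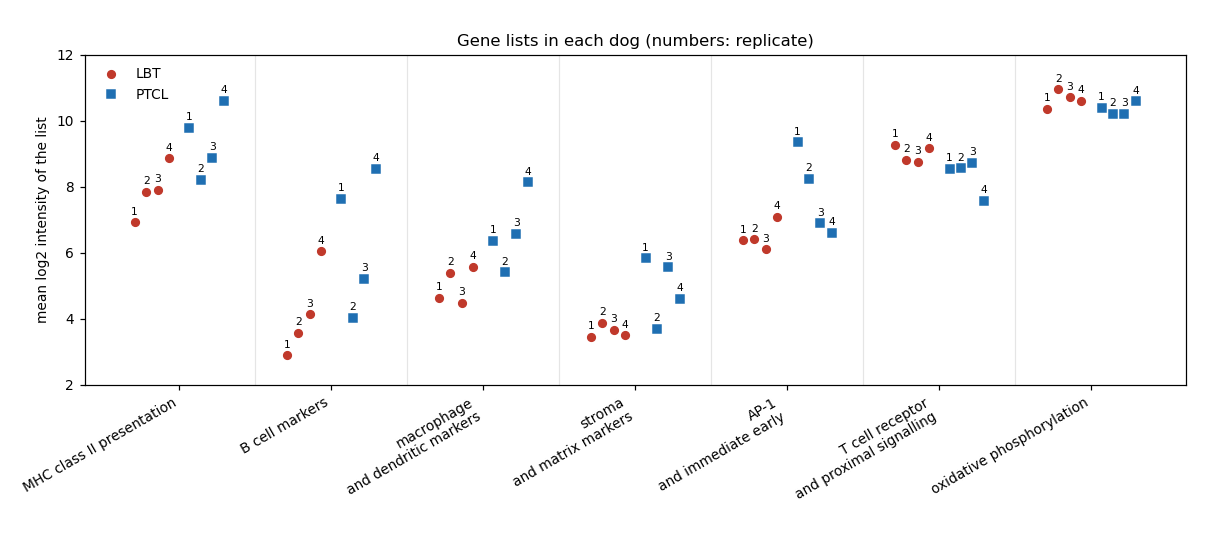
Mean log2 intensity of 7 gene lists (x axis) in each LBT dog (red circles) and PTCL dog (blue squares), numbered by dog (y axis: mean over the tested genes of the list). PTCL dogs 1 and 4 have the highest B cell levels (7.64 and 8.56), LBT dog 4 (6.05) lies above PTCL dogs 2 and 3, and the T cell receptor level is lowest in PTCL dog 4 (7.58).

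Immediate early genes, the AP-1 factors and related genes that respond quickly to stimulation and to handling of tissue, were below 0 in 20 of 20 tested with a median of -1.23, and 0 passed (1 at an unadjusted p under 0.05). The median was -0.64 without PTCL dog 1 and -1.90 without PTCL dog 4. PTCL dogs 1 and 2 had means of 9.36 and 8.24, PTCL dogs 3 and 4 of 6.90 and 6.60, and the LBT dogs lay between 6.11 and 7.11. DUSP5, a phosphatase of activated ERK, read 4.24, 4.59, 2.94 and 4.11 in LBT and 8.14, 4.06, 6.20 and 8.04 in PTCL (difference -2.64, SE 0.81, limma's adjusted p = 0.121), and KLF6, an early response factor, 7.87, 7.20, 8.00 and 8.43 and 11.03, 10.49, 9.62 and 6.81 (difference -1.61, SE 0.83, limma's adjusted p = 0.426).

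NF-kappaB genes had a median of -0.41 over 24 tested with 20 below 0, and 0 passed (4 at an unadjusted p under 0.05). NFKBIA, the inhibitor that the pathway itself induces, was 10.09 to 11.16 in LBT and 11.24 to 12.14 in PTCL (difference -0.86, SE 0.39, limma's adjusted p = 0.351). TNFRSF13C, the receptor for the B cell survival factor BAFF, was above the minimum in PTCL dogs 1 and 4 only (difference -1.90, SE 0.75, limma's adjusted p = 0.267). BIRC3 and BCL2A1, survival genes that NF-kappaB induces, differed by -1.70 (SE 0.59, limma's adjusted p = 0.186) and -1.31 (SE 0.42, limma's adjusted p = 0.147). Among 19 cell death regulators 0 passed (3 at an unadjusted p under 0.05, median -0.07). BCL2, the inhibitor of mitochondrial apoptosis, was 7.42 to 8.48 in LBT and 6.98 to 9.74 in PTCL, and CASP9, an initiator caspase, differed by 0.66 (SE 0.31, limma's adjusted p = 0.372). The BCL2 difference was near 0 (SE 0.68) and took both signs over the alternative fits.

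Interferon-response genes had a median of -0.57 over 28 tested, 22 below 0 and 0 passed (1 at an unadjusted p under 0.05). The median was -0.21 without LBT dog 1, -0.26 without PTCL dog 4, -0.36 without LBT dog 2 and -0.92 without PTCL dog 3. Their mean was 4.70 and 4.79 in LBT dogs 1 and 2 and 6.15 and 6.37 in LBT dogs 3 and 4, and 4.91 to 7.07 over the PTCL dogs. HERC6 and GBP1, both induced by interferon, differed by -1.52 (SE 0.91, limma's adjusted p = 0.526) and 0.79 (SE 0.33, limma's adjusted p = 0.306). MHC class I processing had a median of -0.12 over 19 tested with 0 passed (3 at an unadjusted p under 0.05). DLA-79, a class I gene, was 5.12 to 8.65 in LBT and 8.10 to 10.30 in PTCL (difference -2.36, SE 0.85, limma's adjusted p = 0.218), TAP1, the peptide transporter, differed by -0.56 (SE 0.26, limma's adjusted p = 0.365), and CALR, a chaperone of peptide loading, by -1.39 (SE 0.57, limma's adjusted p = 0.283) with the other sign (0.10) in its other probe set.

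Proliferation lists held no called gene. Mitosis genes had a median of 0.13 over 41 tested, 28 of 41 above 0, with 0 passed and 0 at an unadjusted p under 0.05, and replication genes a median of 0.23 over 51 tested, 38 of 51 above 0, with 0 passed and 1 at an unadjusted p under 0.05. The mitosis median was -0.24 without PTCL dog 2, whose mean over the list was the lowest of the 8 dogs (6.10), and the replication median was 0.07 without PTCL dog 1 and 0.10 without LBT dog 1. MCM5, a subunit of the replicative helicase, was 10.07 to 11.41 in LBT and 9.02 to 10.38 in PTCL (difference 1.30, SE 0.43, limma's adjusted p = 0.161), and RPA3, a single-strand binding subunit, differed by 0.45 (SE 0.26, limma's adjusted p = 0.499). KIF18A and HMMR, spindle proteins, differed by 0.66 (SE 0.56, limma's adjusted p = 0.687) and -0.70 (SE 0.61, limma's adjusted p = 0.703).

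Of 21 G1 and checkpoint genes 0 passed (2 at an unadjusted p under 0.05, median -0.09). GADD45B, a stress-induced gene, read 4.37, 5.63, 4.17 and 7.35 in LBT and 9.11, 7.04, 5.85 and 8.90 in PTCL (difference -2.34, SE 0.79, limma's adjusted p = 0.175), MDM2, the inhibitor of p53, differed by -0.46 (SE 0.20, limma's adjusted p = 0.342), and CDK4, the cyclin D kinase, by 0.53 (SE 0.27, limma's adjusted p = 0.416). MYC, the growth regulator, was 6.96 to 8.07 in LBT and 7.07 to 9.09 in PTCL (difference -0.76, SE 0.56, limma's adjusted p = 0.628). MYC targets and ribosome biogenesis had a median of -0.02 over 31 tested with 0 passed (1 at an unadjusted p under 0.05), among them NPM1, a nucleolar chaperone (difference -0.81, SE 0.36, limma's adjusted p = 0.337), and WDR43, a ribosome assembly factor (difference -0.54, SE 0.30, limma's adjusted p = 0.485). Chromatin regulators had a median of 0.03 over 25 tested with 0 passed (3 at an unadjusted p under 0.05), among them SMARCB1, a remodelling subunit (difference 0.60, SE 0.23, limma's adjusted p = 0.238), and KMT2D, a histone methyltransferase (difference -1.10, SE 0.46, limma's adjusted p = 0.296).

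Respiratory chain genes held no called gene either, and nearly all had the higher mean in LBT. Of 33 tested, 32 were above 0 against 55.1% of all genes, the median was 0.24, 6 had all LBT dogs above all PTCL dogs against 2.61% of all genes, and 0 passed limma's test (7 at an unadjusted p under 0.05). NDUFAB1, the acyl carrier subunit of complex I, read 10.99, 11.93, 11.60 and 11.44 in LBT and 10.43, 10.75, 9.69 and 10.93 in PTCL. The groups did not overlap and the difference was 1.04 (SE 0.31, limma's adjusted p = 0.116). NDUFB5 and NDUFV1, further complex I subunits, differed by 0.59 (SE 0.24, limma's adjusted p = 0.299) and 0.62 (SE 0.26, limma's adjusted p = 0.295), and UQCRFS1, the iron-sulphur subunit of complex III, by 0.65 (SE 0.21, limma's adjusted p = 0.141). The mean over the list was 10.37 to 10.96 in the LBT dogs and 10.21 to 10.59 in the PTCL dogs, so the dogs overlapped. The median was 0.42 without LBT dog 1 and 0.41 without PTCL dog 4, and the all-gene median of 0.05 is included in these differences.

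Glycolysis and hypoxia genes had a median of 0.38 over 25 tested, with 0 passed (4 at an unadjusted p under 0.05), and the median was 0.19 without LBT dog 4, 0.21 without LBT dog 2 and 0.24 without PTCL dog 2. LDHA, lactate dehydrogenase A, was 12.02 to 12.44 in LBT and 11.42 to 12.18 in PTCL (difference 0.53, SE 0.19, limma's adjusted p = 0.214). PFKM and PFKP, phosphofructokinases, differed by 1.16 (SE 0.41, limma's adjusted p = 0.211) and 0.86 (SE 0.42, limma's adjusted p = 0.393). SLC2A3, a glucose transporter of lymphocytes and myeloid cells, was highest in PTCL dog 1 (10.83) and differed by -1.51 (SE 0.74, limma's adjusted p = 0.396).

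A few genes separated single dogs rather than the groups. GTSF1, a factor of the piRNA pathway normally restricted to germ cells, read 10.99, 11.70, 10.87 and 11.28 in LBT and 10.37, 10.64, 11.35 and 2.34 in PTCL. PTCL dogs 1 to 3 were at the level of LBT, PTCL dog 4 was below the minimum like all 9 TZL dogs (2.12 to 2.93), and the difference was 2.53 (SE 1.95, limma's adjusted p = 0.647). EPCAM, an adhesion molecule of epithelium, read 1.86, 1.63, 10.75 and 9.47 in LBT and was below the minimum in all PTCL dogs (difference 3.56, SE 1.80, limma's adjusted p = 0.416). It was high in LBT dogs 3 and 4 and below the minimum in LBT dogs 1 and 2. KRT18, a keratin, was 3.07, 4.74, 8.17 and 4.77 in LBT and 7.84 to 8.56 in PTCL (difference -2.98, SE 1.26, limma's adjusted p = 0.305), and KRT8 was below the minimum in all 8. GYPC, the 1 erythroid gene tested, differed by 0.72 (SE 0.42, limma's adjusted p = 0.514), and ALAS2 and SLC4A1 were below the minimum in all 8.

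Against T-zone lymphoma both groups differed in many more genes than from each other. LBT minus TZL passed in 2259 genes (30.1%) and PTCL minus TZL in 1025 (13.7%), where the 9 TZL dogs, shared by both comparisons, are also the larger group. SMOC2, DOK4, MYB and GTSF1 were below the minimum in all 9 TZL dogs, so their folds, with values under the minimum set to it, are lower bounds. SMOC2 was at least 129-fold higher (limma's adjusted p = 2.12e-10) in LBT and at least 9.25-fold higher (limma's adjusted p = 5.78e-05) in PTCL than in TZL. The same folds were at least 18.9-fold higher (limma's adjusted p = 7.57e-10) and at least 4.04-fold higher (limma's adjusted p = 1.79e-05) in MYB, and at least 148-fold higher (limma's adjusted p = 0.000183) and at least 34.1-fold higher (limma's adjusted p = 0.0112) in GTSF1, where PTCL dog 4 was at the TZL level. For DOK4 they were at least 5.67-fold higher (limma's adjusted p = 4.54e-13) in LBT and at least 1.05-fold higher (limma's adjusted p = 0.00222) in PTCL. DPP4 was measured in TZL, and LBT and PTCL stood above it by 7.14 (adjusted p = 2.12e-10) and 5.46 (adjusted p = 1.53e-07) on the log2 scale with limma. LGALS3 was -5.12 (adjusted p = 1.36e-07) and -2.08 (adjusted p = 0.015), and PRNP -2.82 (adjusted p = 2.16e-08) and -1.27 (adjusted p = 0.00327), lower than TZL in both. FASLG was lower than TZL too, at least 8.46-fold in LBT, where every dog was below the minimum (limma's adjusted p = 5.65e-07), and 6.7-fold in PTCL (adjusted p = 9.34e-05).

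LBT differed from the mean of PTCL and TZL in 1002 genes (13.4%), 645 higher and 357 lower. A difference from one of these groups alone can pass this test. Of the 1002, 981 were also called between LBT and TZL, 49 between LBT and PTCL, and 46 in both. DOK4, SLC16A10 and VEGFD had the smallest p-values there (limma's adjusted p = 1.21e-11, 9.60e-09 and 9.21e-08). PTCL differed from the mean of LBT and TZL in 17 genes (0.227%), 7 higher and 10 lower. All 17 were also called between PTCL and TZL, and 3 between PTCL and LBT, namely MITF, CARHSP1 and MOB2, given above. UBASH3A at -2.60 (adjusted p = 0.0329) and the monocyte receptor CD14 at 1.59 (adjusted p = 0.0383) were among the 14 called against TZL and not against LBT. The count of 17 was 65 without PTCL dog 4, 8 without PTCL dog 2, 31 without PTCL dog 1 and 27 without LBT dog 1.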

How the data were processed

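Total RNA of 36 canine lymphoma tissues was hybridised to an Affymetrix canine array. The authors deposited linear intensities per probe set, made with GCRMA per the submitters' processing notes (version not given in the sources used here), which subtracts a modelled background and summarises probes, so low values crowd near the floor. Intensities were floored at 1 and taken to log2. Of 43035 probe sets, 29254 had 1 gene symbol in the platform's annotation, and each gene was represented by its brightest probe set, by mean across the arrays. Dogs of the 6 subtypes (LBT, PTCL, TZL, DLBCL, MZL and BL, 34 dogs) were fitted with limma 3.58.1 in R 4.3.3. The fit had a mean per subtype, moderated variance pooled over the subtypes and Benjamini-Hochberg adjustment over 7500 genes. The arrays of the DLBCL dog measured more than once were averaged, and the single dog labelled NBNT was left out. Folds set values below log2 4 to 4, and are lower bounds ("at least") where a whole group lay below it.

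Named genes were the called genes without overlap with the 15 largest differences in each direction (9 lower qualified), up to 4 members with the smallest p of each of 30 gene lists, and 33 set genes, of which 29 had a probe set. Genes, lists and comparison were chosen with earlier results of these data known. The fit was also run on simulated data with the same spread in all groups for each gene. That run does not cover genes whose spread differs among groups, so no conclusion is drawn from it. The other set genes were not analysed here. Alternatives covered the filter, scaling, variance model, covariates, samples, probe sets and each dog left out.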

Additional observations from a re-analysis of the deposited data

Results flagged for a closer look

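Of 310 combinations of a named gene with LBT or PTCL, 17 had 1 dog far from the other 3, and chance alone gives about 1 in 20. LBT dog 4 was that dog in 5 cases. CCL17 read 8.16 in it against 2.42 to 3.36 in the other LBT dogs, DLA-DQA1 10.80 against 9.22 to 9.42, BCL2A1 10.75 against 8.93 to 9.12, CXCR5 3.15 (below the minimum) against 1.82 to 2.01, and LDHA 12.02 against 12.43 to 12.44. LBT dog 1 stood apart in MIS12 at 9.09 against 7.02 to 7.29 and in NPM1 at 8.45 against 8.97 to 9.07. LBT dog 2 stood apart in MMP9 at 5.44 against 2.19 to 2.62 and in KLHL2 at 4.17 against 5.00 to 5.11.

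PTCL dog 4 stood apart in GTSF1 at 2.34 against 10.37 to 11.35 in the other PTCL dogs, in CD4 at 5.24 against 7.20 to 7.55, and in KCTD5 at 4.16 against 3.38 to 3.47. PTCL dog 1 stood apart in CCR7 at 9.31 against 4.63 to 4.81, in RBM20 at 4.74 against 1.51 to 1.91, and in DNTT at 3.08 against 2.34 to 2.41. The DNTT values of all PTCL dogs are below the minimum. PTCL dog 3, the dog with the highest actin 3' control, stood apart in CARHSP1 at 5.36 against 6.71 to 6.85 and in DNAAF5 at 3.78 against 2.79 to 2.93. The cause of these single values was not tested.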

How the results depend on the processing

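The 51 called genes kept their direction in every alternative, but their number did not hold. It was 33 with a stricter filter at log2 6, 96 with values below 4 set to 4, 0 in the 8 dogs alone, 13 in the 17 T-cell dogs, 24 with age and 84 with sex as a covariate, 82 with the array set (the actin 3' control at 13 or more) as a block, 146 over every probe set and 11 without the PTCL dog of intermediate grade. Leaving out 1 dog gave 11 to 180. Other scalings, variance models and the remaining settings gave 39 to 71.

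Genes without overlap between the groups numbered 338, 572 with no filter, 660 without the array set, 516 without the PTCL dog of intermediate grade and 499 to 769 with 1 dog left out, where fewer dogs overlap less by construction. The 1002 genes of LBT against the mean of PTCL and TZL stayed between 692 and 1250. The 17 genes of PTCL against the mean of LBT and TZL became 10 with the stricter filter, 36 with values below 4 set to 4, 9 in the 17 T-cell dogs, 4 with array weights, 10 with breed as a covariate, 9 without the array set, 65 without the PTCL dog of intermediate grade and 8 to 65 with 1 dog left out. The cause of these changes was not tested.

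The median correlation within LBT (0.918) was 0.963 with no filter and 0.893 with the stricter filter, and within PTCL (0.88) it was 0.947 and 0.839, with 0.85 to 0.887 when 1 dog was left out. The mean difference in the actin control (-1.06) was -1.35 to -0.34 with 1 dog left out, and 0.42 for GAPDH in its place. Of 148 genes named and tested, 6 took the other sign somewhere. IKZF2 was -0.17 and CALR 0.095 in another probe set. CD3E ran from -0.18 (without PTCL dog 4, the dog of intermediate grade) to 0.96 with 1 dog left out, PTPRC from -0.036 (without LBT dog 1) to 0.58, with -0.091 in another probe set, CCR7 from -0.28 to 1.28 and BCL2 from -0.31 to 0.61. CCR7 was also -0.82 with array weights, -0.015 with sex, -0.024 with breed and -0.31 with both control differences as covariates, -0.18 with the array set as a block, -0.22 without that set and -0.28 without the PTCL dog of intermediate grade. BCL2 was also 0.038 after median centring, 0.032 with array weights and 0.062 with breed as a covariate. Medians of 8 of 27 lists, all within 0.33 of 0, took the other sign in at least 1 alternative. No paired analysis was possible because the dogs of the 2 groups are different animals and carry no pairing. With 4 dogs a group and intensities crowding near the floor, small differences and low genes could not be resolved.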
